A study of Mus musculus with 4 samples.

Results

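The genes described here are Gmnc and 7 genes of its family and of the multiciliation programme, Mcidas, Gmnn, Ccno, Foxj1, Myb, Cdc20b and Deup1, which make 8 of the 35689 genes in the deposited table. They were picked by name because Gmnc was higher in knockout forelimbs in an earlier reading of the same data, and the question was whether genes known to act downstream of Gmnc followed it. The knockout embryos had the genotype PrxCre/+;Smarcc1c/c and the control embryos Prx+/+;Smarcc1c/c, so that both groups were homozygous for the conditional Smarcc1 allele and differed by the Cre transgene, which is active in limb bud mesenchyme. BAF155, the product of Smarcc1, belongs to the core of BAF, a complex that moves nucleosomes. Each of the 4 libraries held the whole forelimb pair of 1 mouse embryo at E11.5, with 1 embryo of 40 somites and 1 of 39 somites in each group (n = 2 per group). Whole buds also contain ectoderm, blood and endothelium, which the Cre does not target.

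GMNC (also called GEMC1) and multicilin, the product of Mcidas, are coiled-coil proteins related to geminin, the product of Gmnn. Geminin restrains the licensing of DNA replication, whereas GMNC and multicilin start the differentiation of multiciliated cells in airway, brain ependyma and reproductive ducts. They act through E2F4 or E2F5 with a DP partner. In that programme GMNC acts upstream of Mcidas, and the genes switched on include Ccno, Myb, Foxj1, Deup1 and Cdc20b. Limb bud cells carry instead a single primary cilium, the organelle through which Hedgehog signals pass.

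Gmnc (ENSMUSG00000068428) lies on the minus strand of chr16:26913553-26991652 in mm10 and has 4 annotated transcripts, 3 of them protein-coding. Ccno (ENSMUSG00000042417, chr13:112987802-112990777), Mcidas (ENSMUSG00000074651, chr13:112993845-113000394) and Cdc20b (ENSMUSG00000078926, chr13:113035111-113091195) follow each other on the plus strand of chromosome 13. The sequences upstream of Gmnc and of the first pair of genes in that cluster are shown because they stand before the gene that differed and before a relative and a target of it that stayed under 0.1 TPM. Each run covers the 250 bases before a RefSeq start (GRCm38.p6, gene strand, 5′ to 3′), with CpG pairs in capitals.
Gmnc, outer start, chr16:26991653-26991902, minus strand: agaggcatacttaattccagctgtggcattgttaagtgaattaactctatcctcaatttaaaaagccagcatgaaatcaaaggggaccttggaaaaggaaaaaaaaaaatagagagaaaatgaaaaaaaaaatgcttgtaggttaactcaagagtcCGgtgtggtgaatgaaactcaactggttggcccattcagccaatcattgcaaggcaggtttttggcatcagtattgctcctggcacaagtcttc
Gmnc, inner start, chr16:26968246-26968495, minus strand: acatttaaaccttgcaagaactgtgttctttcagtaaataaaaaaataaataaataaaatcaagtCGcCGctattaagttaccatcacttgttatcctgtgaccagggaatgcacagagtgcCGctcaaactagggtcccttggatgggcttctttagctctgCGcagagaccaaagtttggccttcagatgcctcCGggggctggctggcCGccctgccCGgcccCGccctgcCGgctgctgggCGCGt
Ccno, chr13:112987552-112987801, plus strand: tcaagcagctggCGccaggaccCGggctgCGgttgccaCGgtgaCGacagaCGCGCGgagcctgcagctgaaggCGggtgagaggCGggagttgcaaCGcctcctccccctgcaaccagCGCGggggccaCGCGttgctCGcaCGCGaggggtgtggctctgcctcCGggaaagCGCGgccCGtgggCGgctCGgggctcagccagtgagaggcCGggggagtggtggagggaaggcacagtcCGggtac
Mcidas, chr13:112993618-112993867, plus strand: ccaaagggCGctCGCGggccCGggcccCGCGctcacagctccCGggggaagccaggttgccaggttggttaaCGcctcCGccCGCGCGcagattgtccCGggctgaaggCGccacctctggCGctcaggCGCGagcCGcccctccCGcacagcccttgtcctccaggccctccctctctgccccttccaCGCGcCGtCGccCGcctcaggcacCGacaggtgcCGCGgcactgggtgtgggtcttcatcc

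The outer Gmnc window held 1 CpG pair and was 39.2% G and C, and the inner window held 11 pairs at 51.6%. The Ccno and Mcidas windows held 26 and 27 pairs at 72.4% and 73.6%, and the Cdc20b window 18 pairs at 63.6%. The median over all 32851 windows was 6 pairs and 52.4%. The deposited values are summed per gene, so they do not say from which Gmnc start the transcripts came. RefSeq windows were found for 6 of the 8 genes. The E2F-type words TTTCCCGC, TTTGGCGC and TTTCGCGC, read on both strands, occurred in 0 of their 8 windows and in 1.53% of all windows, and nothing follows from their absence about binding.

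The span of Cdc20b holds microRNAs of the miR-449 family, which act in multiciliated cells. The table of gene values has no row for them, so only their host gene was read. Their 5p arms share the seed at bases 2 to 8, which is in capitals.
mmu-miR-449a-5p, chr13:113037549-113037570, plus strand: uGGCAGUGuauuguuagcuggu
mmu-miR-449c-5p, chr13:113036008-113036028, plus strand: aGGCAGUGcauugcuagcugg

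All values are TPM as deposited, which are corrected for transcript length and for the total of each library and hold no read depth. Between 12555 and 12689 genes reached 1 TPM in each library. Smarcc1 had 46.2 and 38.4 TPM in knockout limbs, against 112 and 119.6 TPM in control limbs, the embryo of 40 somites being named before that of 39 here and throughout. On the log2(TPM + 1) scale Smarcc1 fell by 1.44 ± 0.13 (SE, n = 2 in each group; limma, Benjamini-Hochberg adjusted p = 0.0117). All 8 limb mesenchyme markers, among them Prrx1 and Tbx5, were at 1 TPM or more in every library. Of these 8, 1 rose and 1 fell (limma, Benjamini-Hochberg adjusted), as did 0.812% and 0.492% of all tested genes. Pdgfra rose to 161.8 and 173.4 TPM in knockout limbs, against 79.5 and 84.0 TPM in control limbs (adjusted p = 0.0165). Msx1 fell to 27.0 and 27.8 TPM in knockout limbs, against 81.5 and 108.9 TPM in control limbs (adjusted p = 0.0117). Prrx1 had 129.9 and 139.8 TPM in knockout limbs, against 188.2 and 201.1 TPM in control limbs, and did not pass (limma adjusted p = 0.101, unadjusted p = 0.00254). Twist1 lay on the higher side, with 163.0 and 197.8 TPM in knockout limbs, against 129.0 and 150.9 TPM in control limbs. It did not pass either (limma adjusted p = 0.344, unadjusted p = 0.0432). All 10 surface ectoderm markers lay below 0, with a median log2 fold change of -0.51. In limma 0 of the 10 passed, and 4 were lower at an unadjusted p under 0.05, as were 6.89% of all tested genes. With somite stage as a block 3 of the 10 passed, and more did without knockout replicate 1, a fit that leaves 1 knockout library. The part of ectoderm or of mesenchyme composition in the results that follow was not tested. The Y-linked gene Ddx3y had 0.0498 and 28.3 TPM in knockout limbs, against 0.013 and 30.2 TPM in control limbs, so stage and sex cannot be told apart here. In bulk tissue, fewer cells of a type and less RNA per cell cannot be told apart.

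Gmnc had 8.14 and 3.69 TPM in knockout limbs, against 0.291 and 0.394 TPM in control limbs. Both knockout libraries lay above both control libraries, and the control libraries were under 1 TPM. Mean levels were 5.91 ± 3.14 TPM in the knockout and 0.343 ± 0.0726 TPM in the control (SD, n = 2 each), a ratio of 17.3. The ratio of knockout to control was 27.9 between the embryos of 40 somites and 9.37 between those of 39 somites. The knockout libraries themselves differed 2.21-fold. On the log2(TPM + 1) scale the difference was 2.29 ± 0.32 (SE), the 18th largest among 12809 tested genes, and 74.6% of tested genes had a higher mean TPM in the knockout than Gmnc did. This difference chose the genes and is given without a test. A pseudocount of 0.1 in place of 1 gave 3.67 and a pseudocount of 5 gave 1.0.

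**Figure D1:**
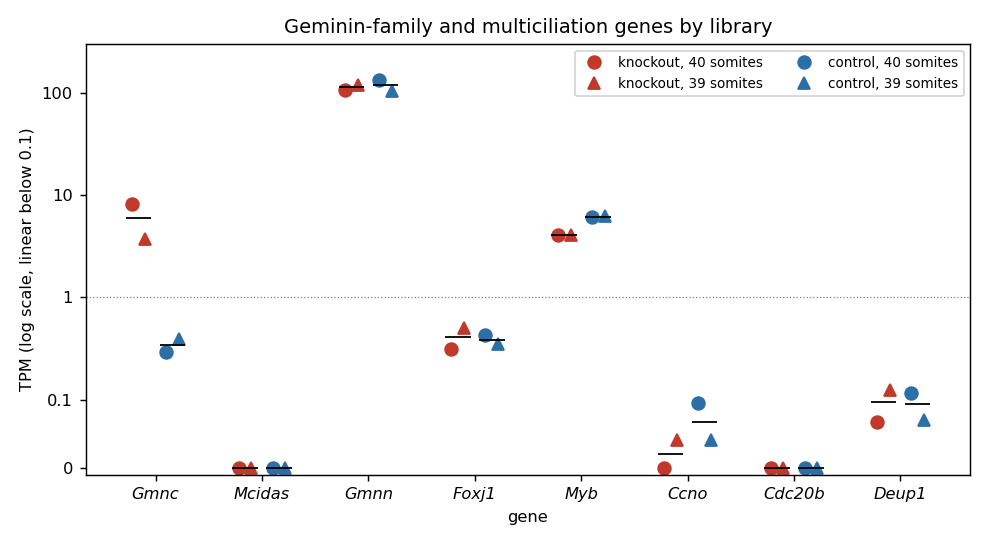
TPM of the 8 genes (x axis) in each library (y axis, log scale that is linear below 0.1). Red symbols are knockout and blue control libraries, circles have 40 somites and triangles 39, short lines are group means, and the dotted line marks 1 TPM. Gmnc is the gene whose knockout symbols (8.14 and 3.69) stand clear above its control symbols (0.291 and 0.394), Myb lies lower in the knockout, and Mcidas and Cdc20b are at 0 in every library.

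Of the relatives of Gmnc, Mcidas was listed at 0 TPM in all 4 libraries. That was true of 14743 of the 35689 genes, and with the depth unknown a listed 0 gives no upper limit. Gmnn (ENSMUSG00000006715, chr13:24751845-24761923), the most abundant of the 8, had 107 and 119.5 TPM in knockout limbs, against 133.5 and 103.6 TPM in control limbs. The groups overlapped. The log2 fold change of Gmnn was -0.06 ± 0.15 with a 95% interval from -0.42 to 0.31, short of the threshold (limma, Benjamini-Hochberg adjusted p = 0.924).

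None of the 6 genes named as acting below Gmnc in multiciliated cells was higher in both knockout libraries than in both control libraries. Foxj1 (ENSMUSG00000034227, chr11:116330704-116335399), the transcription factor of motile cilia, had 0.312 and 0.503 TPM in knockout limbs, against 0.425 and 0.351 TPM in control limbs. It was lower in the knockout between embryos of 40 somites and higher between those of 39 somites. Ccno, an atypical cyclin needed for centriole amplification, had a listed 0 and 0.0405 TPM in knockout limbs, against 0.0951 and 0.0404 TPM in control limbs. Its highest value was thus in a control library. Deup1 (ENSMUSG00000039977, chr9:15559864-15627933), which builds the deuterosome where centrioles are amplified, had 0.0681 and 0.125 TPM in knockout limbs, against 0.117 and 0.0708 TPM in control limbs. Cdc20b, another gene of centriole amplification, was listed at 0 TPM in all 4 libraries. For Foxj1, Deup1, Ccno, Mcidas and Cdc20b no library reached 1 TPM and the groups did not separate.

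Myb (ENSMUSG00000019982, chr10:21124935-21160984), which encodes a transcription factor of multiciliated cells and of blood progenitors, stood lower in the knockout, opposite to Gmnc. Myb had 4.07 and 4.08 TPM in knockout limbs, against 6.05 and 6.21 TPM in control limbs, and the groups did not overlap, as in 43.9% of all tested genes. The ratio of knockout to control was 0.672 between embryos of 40 somites and 0.657 between those of 39 somites. The log2 fold change of Myb was -0.49 ± 0.14 with a 95% interval from -0.83 to -0.16, short of the threshold over all genes (limma, Benjamini-Hochberg adjusted p = 0.197; unadjusted p = 0.0113). Blood cells in the bud were read from their markers. Of the 11 blood markers, 8 were tested, 0 passed and 7 lay above 0. In limma 2 of the 8, Hba-a1 and Gfi1b, were higher at an unadjusted p under 0.05, as were 6.78% of all tested genes. With somite stage as a block 1 of the 8 passed. The list summed to 1991 and 1981 TPM in knockout limbs, against 913.2 and 1306 TPM in control limbs, of which the globin gene Hba-a1 made 1832 and 1833 TPM in knockout limbs, against 782.5 and 1154 TPM in control limbs. The other globin gene of the list, Hbb-bt, had 136.9 and 121.2 TPM in knockout limbs, against 111.9 and 127.4 TPM in control limbs. Hba-a1 was thus higher in both knockout libraries than in both control libraries, while Hbb-bt overlapped between the groups. Kit, a receptor of blood progenitors and other cells, had 6.33 and 6.38 TPM in knockout limbs, against 4.71 and 5.15 TPM in control limbs. Spi1, a factor of myeloid cells, had 0.340 and 0.370 TPM in knockout limbs, against 0.868 and 1.26 TPM in control limbs. Runx1, also of the list and under the filter, had 0.523 and 0.357 TPM in knockout limbs, against 1.01 and 0.699 TPM in control limbs. The part of blood cells in the Myb values was not tested.

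The filter of at least 1 TPM in at least 2 libraries let 3 of the 8 genes into the test, Gmnc, Gmnn and Myb, and Gmnc entered through its knockout libraries alone. Of the other pair, Gmnn and Myb, 0 passed limma with Benjamini-Hochberg adjustment at 0.05, where 1.3% of all tested genes passed (167 of 12809), and 1 had an unadjusted p under 0.05, against 13.7% of all tested genes. That was Myb, on the lower side, on which 6.89% of tested genes had such a p. With somite stage as a block 4.16% of all tested genes passed, and Gmnn and Myb again did not. With a filter at 0.1 TPM, 5 of the 8 genes were tested, and again 0 of the genes other than Gmnc passed. Gmnc was left out of these counts because its rise chose the genes. With that filter Gmnc too missed the threshold, which limits its value and is no test of it.

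**Figure D2:**
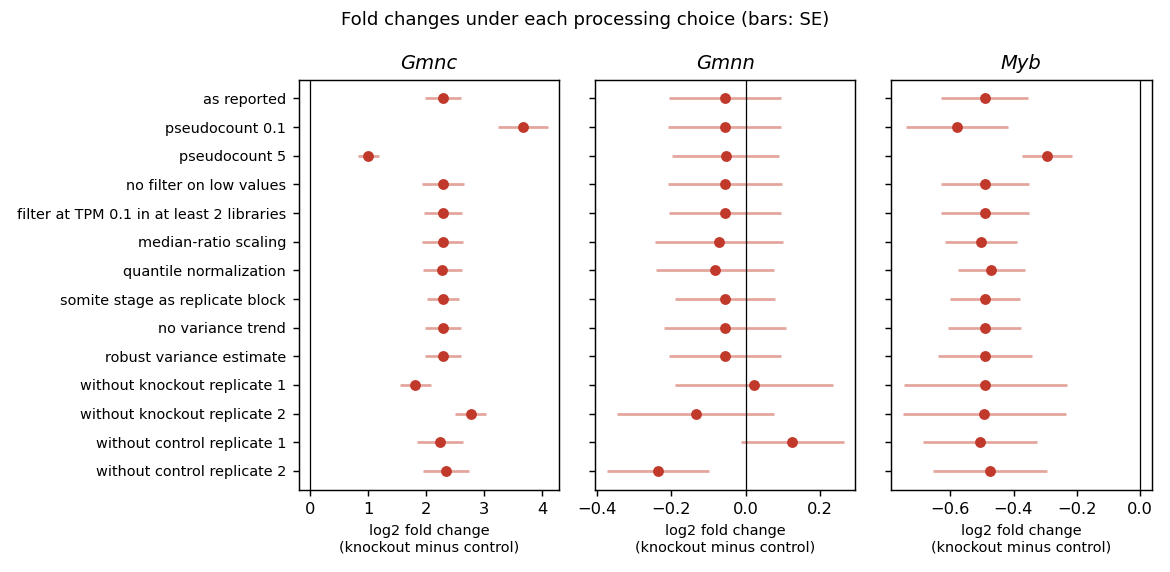
Log2 fold changes, knockout minus control (x axes, bars are SE), of Gmnc, Gmnn and Myb under each processing choice (y axis). Gmnc lies between 1.0 and 3.67, Gmnn around 0 and Myb between -0.58 and -0.29, each panel having its own scale.

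The partners through which the geminin family acts included 0 genes that passed. E2f5 had 60.9 and 66.8 TPM in knockout limbs, against 65.5 and 69.0 TPM in control limbs. Tfdp1, which encodes the DP1 partner, had 135.4 and 133.5 TPM in knockout limbs, against 139.3 and 139.5 TPM in control limbs. Cdt1, the licensing factor that geminin binds, had 34.4 and 35.9 TPM in knockout limbs, against 35.02 and 41.8 TPM in control limbs. Of the 5 partner genes, the other two being E2f4 and Tfdp2, all were tested, 0 passed limma over all genes and 0 had an unadjusted p under 0.05. Their log2 fold changes ran from -0.12 to 0.05, with a median of -0.06, against a median of 0.01 over all tested genes.

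Of 7 other regulators of multiciliation, 3 were at 1 TPM or more in every library and 2 stayed under 1 TPM in every library. Trp73, whose product acts in multiciliated cells and, with Gmnc, in Cajal-Retzius neurons of the brain, had 2.00 and 0.962 TPM in knockout limbs, against 1.65 and 1.49 TPM in control limbs. Rfx2, an RFX factor of ciliary genes, had 2.44 and 3.0 TPM in knockout limbs, against 1.42 and 2.22 TPM in control limbs. Its log2 fold change of 0.41 ± 0.20 missed the threshold (limma, Benjamini-Hochberg adjusted p = 0.454). The related Rfx1 had 6.32 and 6.96 TPM in knockout limbs, against 7.03 and 8.44 TPM in control limbs. Rfx3, also of the list, had 7.55 and 7.61 TPM in knockout limbs, against 7.52 and 7.61 TPM in control limbs. Foxn4 was listed at 0 in all 4 libraries. Fbxo43 had 0.0481 and 0.0811 TPM in knockout limbs, against 0.0464 and 0.0100 TPM in control limbs. Ccna1 had 0.877 and 1.01 TPM in knockout limbs, against 0.495 and 0.588 TPM in control limbs. Among the tested genes of the list, both knockout libraries lay above both control libraries in 1, Rfx2, and below both in 1, Rfx1. Over all tested genes these shares were 22.7% and 21.2%. The untested Fbxo43 and Ccna1 also lay above, at low levels. Of the 7 genes 4 were tested, and 0 passed or had an unadjusted p under 0.05 in limma.

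Most genes of the motile axoneme, the moving core of these cilia, were low in both groups. Of 40 such genes, 28 stayed under 1 TPM in all 4 libraries, the highest value among them being 0.869 TPM for Dnaic1 in a control library. The dynein heavy chain gene Dnah5 reached 0.00417 TPM at most, and the radial spoke gene Rsph4a 0.0205 TPM, each in a knockout library. Of the 11 that were tested 0 passed limma over all genes, while Tekt1 and Stk36 on the higher side and Spag16 on the lower had an unadjusted p under 0.05, as did 6.78% and 6.89% of all tested genes on those sides. Their median log2 fold change was 0.15. The 40 genes summed to 85.9 and 88.9 TPM in knockout limbs, against 71.1 and 75.2 TPM in control limbs. Of the 29 untested axoneme genes, both knockout libraries lay above both control libraries in 8 and below both in 2, all at low levels. Among the tested genes of the whole table these shares were 22.7% and 21.2%. Of the 8, Cfap44 had 0.484 and 0.192 TPM in knockout limbs, against 0.0732 and 0.0735 TPM in control limbs. Of the 2, Dnah11 had 0.0596 and 0.0544 TPM in knockout limbs, against 0.345 and 0.0903 TPM in control limbs.

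Tekt1, which encodes a tektin filament protein of the axoneme, had 9.05 and 9.47 TPM in knockout limbs, against 5.80 and 4.002 TPM in control limbs. The groups did not overlap, as in 43.9% of all tested genes. The log2 fold change of 0.81 ± 0.18 missed the threshold (limma, Benjamini-Hochberg adjusted p = 0.122), and was 0.59 to 1.04 with a library left out. Tekt1 passed in no alternative that kept every library, and otherwise only without knockout replicate 1, a fit that leaves 1 knockout library. Stk36, a kinase gene of the central pair apparatus, had 6.93 and 9.24 TPM in knockout limbs, against 4.85 and 6.03 TPM in control limbs (0.49 ± 0.18; limma, Benjamini-Hochberg adjusted p = 0.321). Spag16, a central pair gene, had 0.520 and 0.547 TPM in knockout limbs, against 1.26 and 1.44 TPM in control limbs (-0.62 ± 0.17; limma, Benjamini-Hochberg adjusted p = 0.187). The 3 genes thus differed in direction.

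**Figure D3:**
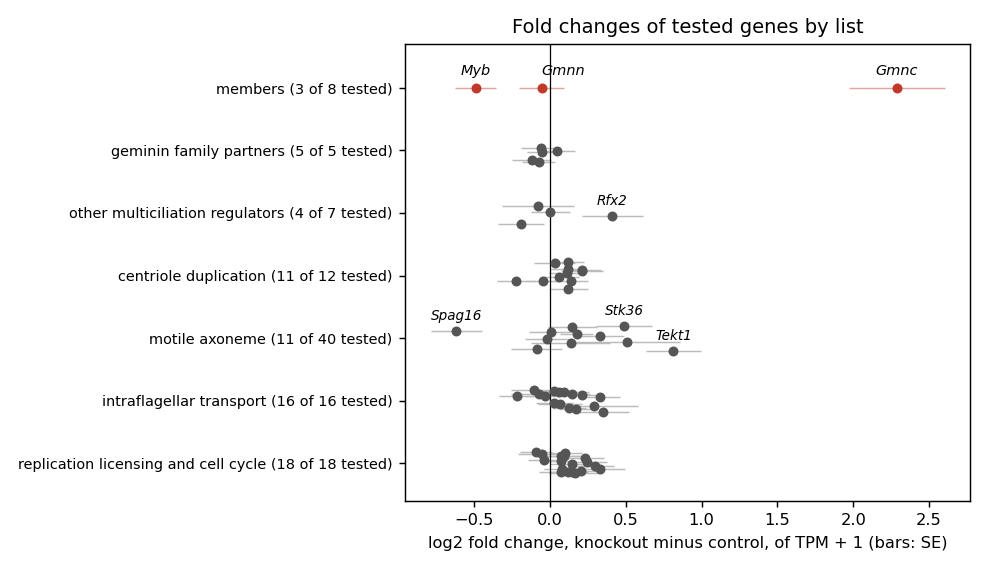
Log2 fold changes, knockout minus control, of the tested genes among the 8 described and in the 6 lists of partners, regulators, centriole, axoneme, transport and licensing genes (x axis, bars are SE), 1 point per gene and 1 row per list. Gmnc is at 2.29, and the other points drawn lie between -0.62 and 0.81.

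Machinery shared with dividing cells or with primary cilia was mostly above the filter. Of 12 genes of centriole duplication 11 were tested, and 0 passed or had an unadjusted p under 0.05 in limma. Cep63, whose product is the counterpart of the Deup1 protein at the mother centriole, had 21.5 and 24.4 TPM in knockout limbs, against 27.8 and 26.1 TPM in control limbs. Cenpj, which lengthens centrioles, had 21.8 and 26.7 TPM in knockout limbs, against 21.1 and 20.3 TPM in control limbs, and Cep135 had 14.1 and 13.1 TPM in knockout limbs, against 11.1 and 12.2 TPM in control limbs. The median of the list was 0.12.

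All 16 genes of intraflagellar transport, the traffic that builds every cilium, were tested. None passed, and 0 had an unadjusted p under 0.05 in limma, with a median of 0.08 and a range from -0.22 to 0.35. The gene of the transport subunit Ift172 had 23.1 and 26.3 TPM in knockout limbs, against 16.4 and 22.4 TPM in control limbs. Ift22 had 41.7 and 42.5 TPM in knockout limbs, against 29.9 and 37.2 TPM in control limbs. Ift46 had 114.1 and 109.5 TPM in knockout limbs, against 91.6 and 101.5 TPM in control limbs. Of the 16 genes, both knockout libraries lay above both control libraries in 6, these 3 among them, and below both in 1, Ift80. Over all tested genes these shares were 22.7% and 21.2%.

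Genes of replication licensing and the cell cycle are the setting in which geminin works. Of the 18, all were tested, 0 passed and 0 had an unadjusted p under 0.05 in limma, while 15 lay above 0, with a median of 0.11. Over all tested genes 6630 of 12809 lay above 0. The helicase subunit gene Mcm5 had 195.7 and 240.2 TPM in knockout limbs, against 152.1 and 194.4 TPM in control limbs. Its partner Mcm4 had 131.9 and 149.4 TPM in knockout limbs, against 111.5 and 128.0 TPM in control limbs. Orc1, of the origin recognition complex, had 26.1 and 26.9 TPM in knockout limbs, against 19.8 and 23.2 TPM in control limbs. Gmnn, at -0.06, lay on the other side of 0 from most of them.

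Other settings in which these genes are known were also read. The node and notochord bear Foxj1-dependent cilia. There, Noto and Foxa2 reached 0.0228 and 0.0363 TPM at most, each in a control library. Foxa1 went the other way, also at low levels, with 0.0731 and 0.0753 TPM in knockout limbs, against 0.0119 and 0.0252 TPM in control limbs. Of the 9 genes of that list 2 were tested and 1 passed, Shh, which at this stage is also the ligand of the posterior limb bud. Shh had 4.59 and 6.38 TPM in knockout limbs, against 17.5 and 14.6 TPM in control limbs (log2 fold change -1.41 ± 0.18, limma, Benjamini-Hochberg adjusted p = 0.0319). With a library left out, the log2 fold change of Shh ran from -1.61 to -1.21, and it missed the threshold without either control library. Among alternatives that kept every library, Shh passed with other pseudocounts, stage as a block and other variance estimates. It missed without a filter, with the filter at 0.1 TPM and under the other scalings. The other tested gene of that list was Chrd, which encodes a BMP antagonist. Chrd had 1.92 and 1.31 TPM in knockout limbs, against 0.711 and 1.20 TPM in control limbs, short of the threshold (limma, Benjamini-Hochberg adjusted p = 0.477). Of 9 genes of Cajal-Retzius neurons, 7 stayed under 1 TPM in all libraries, Lhx5 being listed at 0 in each and Reln having 0.535 and 0.623 TPM in knockout limbs, against 0.286 and 0.405 TPM in control limbs. The tested pair of them, Ebf3 and Ndnf, missed the threshold (limma, Benjamini-Hochberg adjusted p = 0.614 and 0.848).

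None of the tested genes beside Gmnc passed. The nearest protein-coding gene, Il1rap, lies 183.4 kb away and had 4.03 and 3.61 TPM in knockout limbs, against 2.85 and 3.81 TPM in control limbs. Ccdc50, 397.2 kb away on the other side, had 40.7 and 42.6 TPM in knockout limbs, against 47.4 and 48.4 TPM in control limbs. Cldn1, a tight junction gene at 541.7 kb, had 2.69 and 2.65 TPM in knockout limbs, against 4.13 and 3.39 TPM in control limbs. Of the 4 nearest protein-coding genes on each side these 3 were tested and 0 passed (limma, 0 with an unadjusted p under 0.05). Cldn16, Tmem207, Ostn, Uts2b and Fgf12 stayed under 1 TPM, the highest value being 0.351 TPM for Fgf12 in a knockout library.

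Around the cluster of Ccno, Mcidas and Cdc20b, genes with transcripts in every library stood beside others listed at 0. Dhx29, an RNA helicase gene 18.4 kb before Ccno, had 22.5 and 24.5 TPM in knockout limbs, against 21.1 and 23.6 TPM in control limbs. Gpx8, a peroxidase gene that lies within the span of Cdc20b on the opposite strand, had 88.0 and 84.6 TPM in knockout limbs, against 109.5 and 84.2 TPM in control limbs, while Cdc20b was listed at 0. Gzma and Gzmk were also listed at 0 in all 4 libraries. Slc38a9, Plpp1, Mtrex, Dhx29, Gpx8, Esm1 and BC067074 were tested, with log2 fold changes from -0.24 for BC067074 to 0.38 for Slc38a9, all short of the threshold (limma, Benjamini-Hochberg adjusted p from 0.370 for Slc38a9 to 0.894 for Mtrex).

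**Figure D4:**
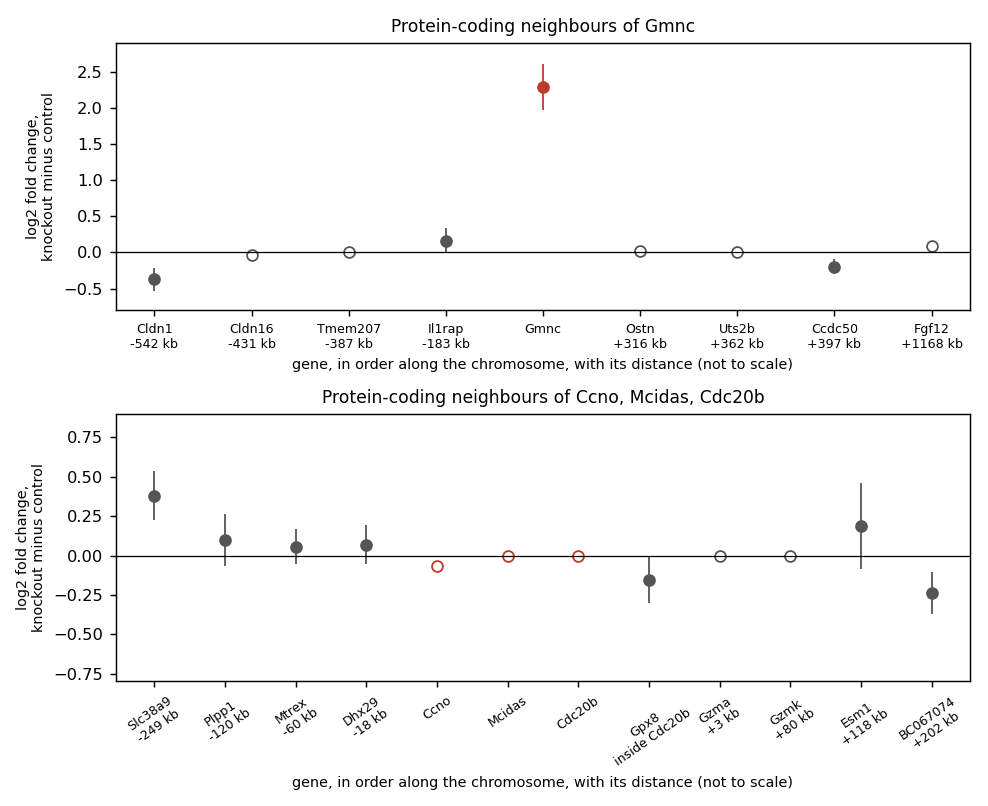
Log2 fold changes, knockout minus control (y axes), of the protein-coding genes nearest to Gmnc (upper panel) and to Ccno, Mcidas and Cdc20b (lower panel), in chromosomal order with distances in kb. Filled symbols were tested (bars are SE), open symbols were under the filter, and red marks the genes described. Gmnc stands at 2.29 while its tested neighbours lie between -0.37 and 0.16.

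The genes whose pattern over the 4 libraries was most like that of Gmnc were T, Islr2, Lox, Arntl2 and Pou4f1. Likeness was the Euclidean distance between mean-centred log2(TPM + 1) profiles, over tested protein-coding genes with a name, and was 0.28, 0.35, 0.56, 0.61 and 0.66 for these genes in that order. T, which encodes the T-box factor brachyury, had 32.2 and 14.2 TPM in knockout limbs, against 2.69 and 3.06 TPM in control limbs. Islr2, a gene of axon growth, had 7.18 and 4.62 TPM in knockout limbs, against 0.577 and 0.518 TPM in control limbs. In both, as in Gmnc, the knockout embryo of 40 somites was the higher. Lox, which encodes a collagen crosslinking enzyme, had 7.50 and 6.33 TPM in knockout limbs, against 0.795 and 0.715 TPM in control limbs. Arntl2, a clock factor gene, had 4.49 and 2.63 TPM in knockout limbs, against 0.393 and 0.214 TPM in control limbs, and Pou4f1, a sensory neuron factor gene, had 20.1 and 11.1 TPM in knockout limbs, against 1.03 and 1.16 TPM in control limbs. These genes were chosen for their likeness to Gmnc and their differences are given without a test. Markers of neurons and Schwann cells, read because Pou4f1 and Islr2 are known in neurons, summed to 14.5 and 14.8 TPM in knockout limbs, against 16.4 and 17.3 TPM in control limbs. Tubb3 made 7.20 and 7.42 TPM of these sums in knockout limbs, against 8.49 and 9.54 TPM in control limbs. Isl1, also of the list, went the other way, with 1.09 and 0.800 TPM in knockout limbs, against 0.728 and 0.374 TPM in control limbs.

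**Figure D5:**
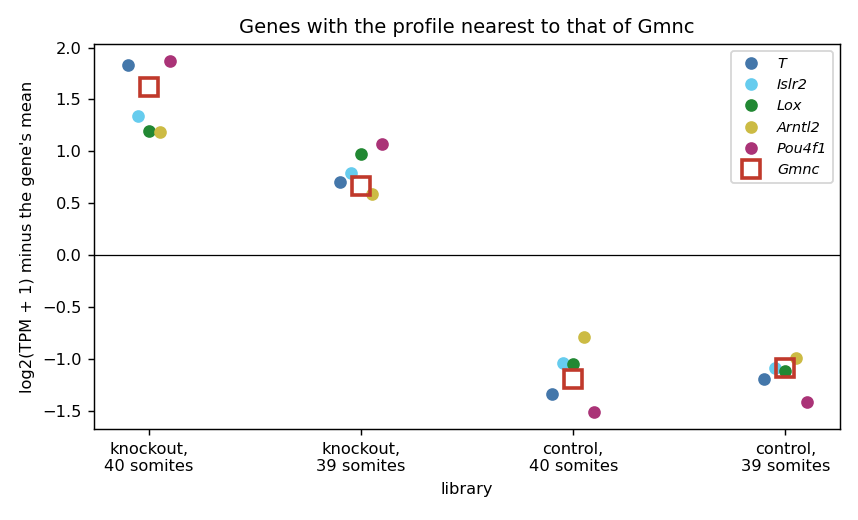
Log2(TPM + 1) minus the gene's own mean (y axis) in the 4 libraries (x axis) for Gmnc (open red squares) and the 5 genes nearest to it (coloured points). In all 6 genes the knockout library of 40 somites is the highest, the knockout library of 39 somites is next, and the control libraries lie below 0.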

How the data were processed

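RNA from 4 forelimb pairs was sequenced on a DNBseq instrument, per the labels' protocols. The authors deposited TPM values, 1 column per embryo and 35727 Ensembl identifiers, each column summing to 1000000. Salmon 1.9.0 and mm10 are named, without settings, in the submitters' processing notes, and the transcript set is not given in the sources used here. Identifiers were matched to GENCODE M21 symbols (35422 matched), and 38 rows sharing a symbol were summed with another. A column name with 1 letter more than its sample title was matched to that title.

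Genes with at least 1 TPM in at least 2 libraries were tested (12809) in limma 3.58.1 (R 4.3.3, lmFit and eBayes with a trend) on log2(TPM + 1). Benjamini-Hochberg adjustment was over all of them at 0.05. The step was also run on simulated data whose libraries varied independently, unlike the same-stage libraries here. Fold changes understate low genes. An exact permutation test of 2 against 2 cannot go below 0.333, so none was run. Depth is unknown, so no counting interval is given. Reads of overlapping genes such as Cdc20b and Gpx8 are uncertain where the strand of the library is unknown.

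Members and lists were chosen with earlier results of these data known. Named genes are the 8 members, Smarcc1, for each list other than the marker lists its genes past the threshold or else up to 3 with the smallest p, the 4 nearest protein-coding genes on each side of Gmnc and of the Mcidas cluster, and the 5 nearest profiles; others, such as Dnah5, Rsph4a, Chrd, Msx1, Pdgfra, Kit and Spi1, were chosen after their values were seen. Alternatives were pseudocounts of 0.1 and 5, no filter and a filter at 0.1 TPM, 2 other scalings, stage as a block, 2 other variance estimates and each library left out.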

Additional observations from a re-analysis of the deposited data

How the results depend on the processing

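With n = 2 per group, limma passed 0 of the members other than Gmnc under all 13 alternatives, with Myb between -0.58 and -0.29 and its adjusted p from 0.0876 to 0.516. Genes passing numbered 0 without a filter (2338 at an unadjusted p under 0.05; Smarcc1 at an adjusted p of 0.111, the highest of the 13), 62 with the filter at 0.1 TPM, 275 with a robust variance, and 50 to 646 with a library left out, where a lone library is assumed to vary like the other group; 167 passed as reported. Gmnc was left out of the count of members because its rise chose them. Among fits that kept every library, Gmnc missed the threshold at a pseudocount of 5, without a filter and with the filter at 0.1 TPM. It also missed under median-ratio and quantile scaling. These misses limit its value and do not test it. The log2 fold change of Gmnc was 3.67 and 1.0 at pseudocounts of 0.1 and 5, and 1.81 to 2.77 with a library left out. The motile axoneme list then had 0 to 1 genes passing, Tekt1 without knockout replicate 1, and the node and notochord list 0 to 1; that list also had 0 without a filter, with the filter at 0.1 TPM, and under median-ratio and quantile scaling, where Shh missed the threshold.

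Log2 fold changes that crossed 0 with a library left out, none of them past the threshold, ran from -0.24 to 0.13 for Gmnn, -0.24 to 0.0049 for Cdt1, -0.39 to 0.23 for Trp73, -0.082 to 0.28 for Plpp1, -0.026 to 0.14 for Mtrex, -0.0086 to 0.15 for Dhx29, -0.34 to 0.033 for Gpx8 and -0.12 to 0.50 for Esm1. The cause was not tested.

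Somite stage as a replicate block pairs embryos by the labelled stage, not by a shared litter or day, and replicate numbers pair nothing. By the Ddx3y values it pairs them by sex as well, so stage and sex cannot be told apart in this block. With it 533 genes passed, and Gmnn and Myb did not (limma adjusted p = 0.833 and 0.0876). Same-stage deviations from the group means correlated over 12809 genes, which are not independent (Pearson r = 0.25, Spearman rho = 0.36).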
